A study of Mus musculus with 3 samples.

Results

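ETS factors are a family of transcription factors that share a winged helix-turn-helix DNA-binding domain, the ETS domain, which recognizes a short GGAA core in regulatory DNA. In endothelial cells, enhancers of many lineage genes carry such sites, and the factors Erg, Fli1 and Ets1 are known for their roles in vascular development and in the maintenance of endothelial identity. Other members, such as Gabpa and Elf2, are found in most cell types. The values given here are those of 10 ETS factors, Erg, Fli1, Ets1, Ets2, Etv6, Elk3, Elk4, Elf1, Elf2 and Gabpa, chosen by name as endothelial and ubiquitous members of the family. Each of the 10 symbols matched 1 row among the 17583 genes of the table.

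The data come from ribosome-associated RNA of cardiac endothelial cells in 3 EC-RiboTag mice, which form a single group. These animals carry Cdh5-CreERT2, a tamoxifen-inducible Cre driven by the endothelial VE-cadherin promoter, and the Rpl22tm1.1Psam allele, from which Cre produces an HA-tagged ribosomal protein. According to the labels hearts were taken 7 days after coronary ligation, but the methods for this experiment name no infarction. The titles carry the letters Rz without an explanation. The study uses RZ for the remote zone and also took RNA of EC-RiboTag mice from that zone at this time for another measurement, so the remote zone is a possible reading, which the labels do not settle. No age or sex is given for single mice, and no input library, control or second condition is among the samples used here, so levels within the immunoprecipitate are described and no enrichment can be calculated.

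The libraries summed to 7149102 to 7268785 normalized counts each, after scaling to one another, so these sums do not show depth. They correspond to about 6755000 to 7565000 reads left after removal of duplicates. A few genes set single libraries apart. Mouse 1 had 4 normalized counts of Xist and 1080 of Ddx3y, against 618 and 869 of Xist and 3 and 1 of Ddx3y in mice 2 and 3. Any departure of mouse 1 given below goes along with this difference and cannot be told apart from it. Mouse 3 had 652 normalized counts of Fos, against 252 and 220 in mice 1 and 2. The endothelial markers Pecam1, Cdh5, Tek, Kdr and Tie1 were all high, with a summed level of 13788 to 14205 normalized counts per library. Transcripts of other cells were also present. The 5 cardiomyocyte markers summed to 16442 to 20653 normalized counts, and the 4 fibroblast markers to 1403 to 1711. Much of the cardiomyocyte sum was Ttn, with 7379, 7743 and 10190 in mice 1, 2 and 3 and a transcript of 107543 bases. Per kilobase of transcript the median was 276 ± 10.5 for the cardiomyocyte and 668 ± 25.5 for the endothelial markers (SD, n = 3). Of 6 leukocyte markers 5 were listed, with a sum of only 240 to 414, and Cd3e was not listed. In such an immunoprecipitate, fewer cells of a type, less RNA per cell and less RNA carried along without the tag cannot be told apart.

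Members of a family can share sequence, so it was first asked whether reads of 72 bases distinguish them. The stretch of 24 codons that is most alike across all 10 proteins lies in the ETS domain and is as long as 1 read. It is shown here because any mix-up of reads between members would be most likely in it. Capitals mark bases that differ from Ets1, and each sequence is the coding strand taken from GENCODE transcripts of GRCm39.
Erg chr16:95161983-95162054, minus strand: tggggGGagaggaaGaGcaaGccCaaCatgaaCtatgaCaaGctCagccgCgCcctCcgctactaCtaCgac
Fli1 chr9:32335399-32335470, minus strand: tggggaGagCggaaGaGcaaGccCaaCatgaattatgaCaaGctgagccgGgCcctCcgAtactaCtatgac
Ets1 chr9:32665521-32665592, plus strand: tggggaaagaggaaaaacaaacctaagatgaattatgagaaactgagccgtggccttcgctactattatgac
Ets2 chr16:95519979-95520050, plus strand: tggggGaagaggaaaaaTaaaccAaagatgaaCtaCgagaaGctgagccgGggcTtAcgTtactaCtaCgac
Etv6 chr6:134238781-134240038, plus strand: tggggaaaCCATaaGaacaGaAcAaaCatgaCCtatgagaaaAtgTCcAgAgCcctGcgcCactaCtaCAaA
Elk3 chr10:93120634-93120705, minus strand: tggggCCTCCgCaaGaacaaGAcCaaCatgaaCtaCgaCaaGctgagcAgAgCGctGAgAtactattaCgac
Elk4 chr1:131942262-131942333, plus strand: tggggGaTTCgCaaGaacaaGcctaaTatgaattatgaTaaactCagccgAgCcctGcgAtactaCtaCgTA
Elf1 chr14:79808297-79810624, plus strand: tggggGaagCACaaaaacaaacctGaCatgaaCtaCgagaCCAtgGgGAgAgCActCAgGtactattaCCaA
Elf2 chr3:51165184-51166651, minus strand: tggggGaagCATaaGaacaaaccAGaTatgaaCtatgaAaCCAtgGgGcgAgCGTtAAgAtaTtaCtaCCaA
Gabpa chr16:84654402-84657275, plus strand: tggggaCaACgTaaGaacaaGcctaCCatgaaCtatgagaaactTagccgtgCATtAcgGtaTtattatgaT

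The stretch lies in a single exon in 6 genes and crosses an intron in Etv6, Elf1, Elf2 and Gabpa, so that the coordinates of those 4 genes include the intron. Ets2 differed from Ets1 at 12 of the 72 bases without a change of any encoded residue. Erg and Fli1 were the most alike and still differed at 7 bases, while the 45 pairs of members ranged up to 27 differences. Over the whole transcripts, the longest run shared by any pair of members was 22 bases, in Erg and Fli1. No window of 72 bases had an exact copy elsewhere in the genome in 9 of the genes. In Elk4 it was 1.18% of the windows. Reads shortened by trimming were not examined. In Ets1, the transcript that the annotation calls canonical contains this stretch, but only 28 of its 72 bases fall within the coding sequence, which has 382 codons against 484 in the longest coding transcript. Counts per gene do not tell these isoforms apart.

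Because longer transcripts collect more reads, levels of different genes were compared as normalized count per kilobase (kb) of canonical transcript. By this measure Elk3, Ets1, Ets2, Erg and Fli1 formed an upper group with 437 to 604 per kb, and Elf2, Elf1, Elk4, Gabpa and Etv6 a lower group with 175 to 288 per kb. The median was 73.0 per kb over the 17475 genes with a known length, and 176 per kb over the 9356 of them with a mean normalized count of at least 200. All members but Etv6 were above the second value in every mouse. The 5 members of the upper group exceeded between 94.99% (Fli1) and 98.5% (Elk3) of all genes with a length, and the members of the lower group exceeded between 72.4% and 86.3% of them. After removal of duplicate single-end reads, a transcript can hold about 1 read per position, that is, 1 per base. The members thus stayed below this limit, although the upper group was nearer to it. Reads that fall on the same position are also lost below the limit, so differences between members may be narrowed. How far this went was not tested.

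**Figure D1:**
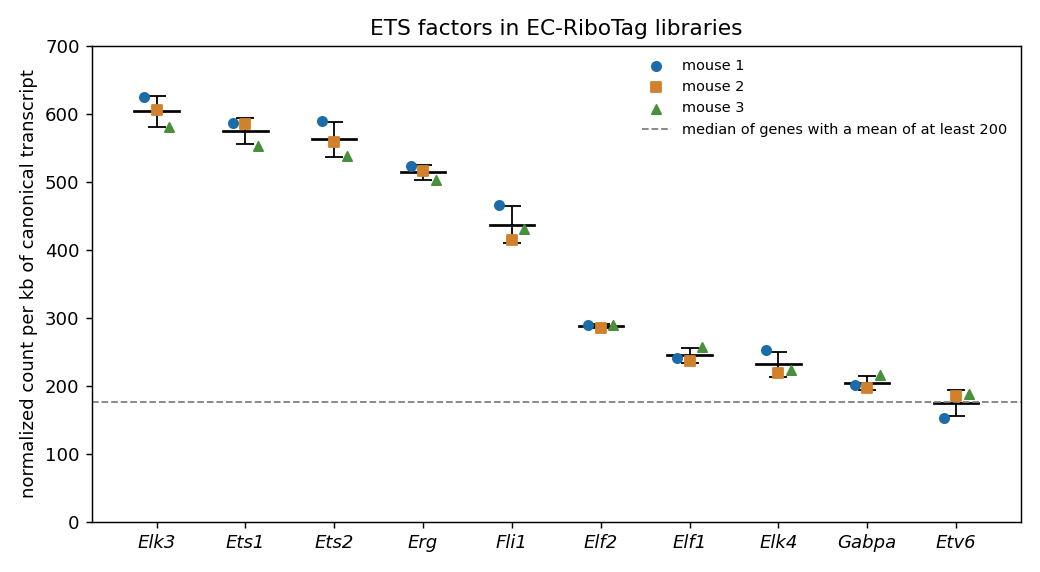
Normalized count per kb of canonical transcript (linear axis) of the 10 ETS factors in each of 3 mice (points), with the mean (line) and SD (error bars); the dashed line is the median of 176 per kb over genes whose mean reached 200. The 3 mice lie close together for each gene, the first 5 genes have means of 437 to 604 per kb and the other 5 of 175 to 288 per kb.

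Erg and Fli1 are the closest relatives within the family and are both needed for endothelial identity and vessel stability. Erg, at chr16:95160028-95387452 of GRCm39 (minus strand), had 1664, 1641 and 1598 normalized counts (mice 1, 2 and 3, the order kept throughout), with a mean of 1634 ± 33.5 (SD, n = 3 mice). Fli1, at chr9:32333500-32454157 (minus strand), had 1547, 1374 and 1431, with a mean of 1451 ± 88.2 (SD, n = 3). Erg was above Fli1 in each mouse and the values of the genes did not overlap. Per kb, Erg had 514 ± 10.5 and Fli1 had 437 ± 26.6 (SD, n = 3). The log2 ratio of Erg to Fli1 per kb was 0.23 ± 0.08 (SD, n = 3), and it was positive in 3 of 3 mice (exact sign-flip permutation test, two-sided p = 0.25, adjusted p = 0.3125 over 5 pairs). With 3 mice this test cannot give a p below 0.25, so that none of the 5 ratios can pass 0.05.

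Ets1 acts in angiogenic endothelium and in lymphocytes, and Ets2 is a widely expressed target of growth factor signalling. Ets1, at chr9:32547517-32669116 (plus strand), had the highest normalized counts of all members with 2984, 2974 and 2814, a mean of 2924 ± 95.4 (SD, n = 3). It ranked 42 among the 17583 genes before division by length. Ets2, at chr16:95502942-95522095 (plus strand), had 2352, 2228 and 2143, a mean of 2241 ± 105 (SD, n = 3). Both genes were lowest in mouse 3. Per kb they did not differ beyond the spread between mice, with 575 ± 18.8 for Ets1 and 562 ± 26.4 for Ets2 (SD, n = 3). The log2 ratio per kb was 0.03 ± 0.04 (SD, n = 3), with values between -0.01 and 0.06 in the single mice (exact sign-flip permutation test, two-sided p = 0.5, adjusted p = 0.5). Its sign turned to -0.07 when all annotated exons were taken as length.

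These 4 genes lie in a pair of clusters. Erg and Ets2 are neighbours on chromosome 16, separated by 115 kb, and Fli1 and Ets1 are neighbours on chromosome 9, separated by 93.4 kb. In neither gap does the table list another gene that lies wholly inside it. Together the 4 genes held 43.5% ± 1.3 (SD, n = 3) of the summed level per kb of all ETS genes listed. Within each cluster the member of the Ets subgroup was the higher one per kb, Ets2 above Erg and Ets1 above Fli1, in all 3 mice. With all exons joined the mean of Ets1 was still above that of Fli1, but Erg was above Ets2, with 470 against 361 per kb.

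Elk3 and Elk4 are ternary complex factors, which bind DNA together with serum response factor (Srf) and respond to growth factor signals. Elk3, also known as Net, is a repressor that was linked to angiogenesis. It lies at chr10:93083276-93146997 (minus strand) and had normalized counts of 2668, 2588 and 2478, a mean of 2578 ± 95.4 (SD, n = 3). Per kb it was the highest of the 10 members with 604 ± 22.3 (SD, n = 3), above 98.5% of all genes, and it took the first place in each mouse. Elk4, at chr1:131935345-131960350 (plus strand), had 1117, 972 and 988, a mean of 1026 ± 79.5 (SD, n = 3), or 231 ± 17.9 per kb. The highest value of Elk4 was in mouse 1, and no value came near those of Elk3. The log2 ratio of Elk3 to Elk4 per kb was 1.39 ± 0.08 (SD, n = 3), a 2.61-fold difference in the same direction in 3 of 3 mice (exact sign-flip permutation test, two-sided p = 0.25, adjusted p = 0.3125). The size of this ratio depends on the length of Elk4, whose transcript has 4435 bases in the canonical form and 10551 bases in the longest coding form. The log2 ratio was 2.35 with all exons joined and 2.51 with the longest coding transcripts, an alternative added once the data had been seen. Elk1, the third ternary complex factor, had normalized counts of 344, 283 and 377, or 80.8 ± 11.5 per kb (SD, n = 3). Srf itself had 1007, 1012 and 1057 normalized counts, or 249 ± 6.68 per kb (SD, n = 3).

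**Figure D2:**
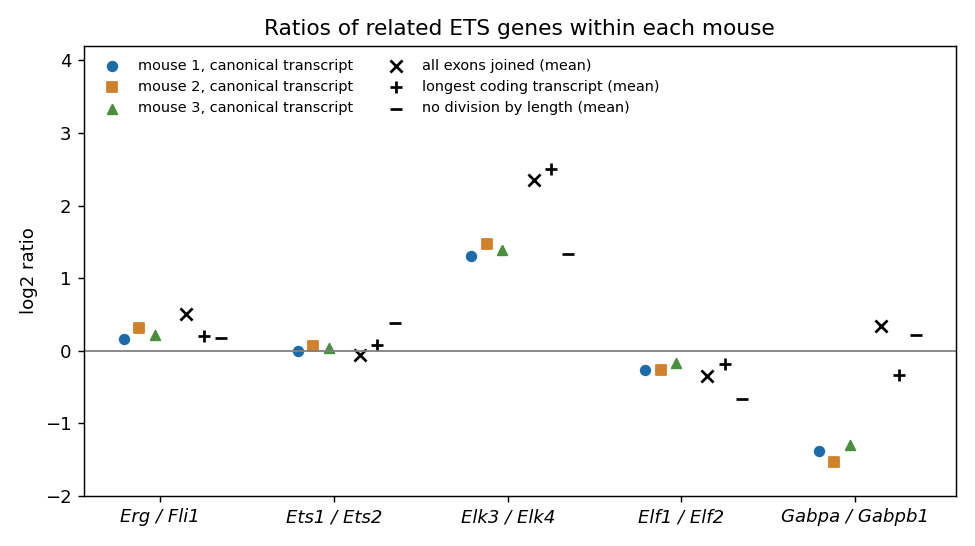
Log2 ratio of 5 pairs of related genes in each of 3 mice (coloured points, per kb of canonical transcript), with the mean ratio under 3 other treatments of length (black symbols). Elk3 stays above Elk4 under each length, whereas the ratio of Gabpa to Gabpb1 changes from -1.40 to 0.34 with all exons joined.

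Elf1 and Elf2 belong to the Elf subgroup, of which Elf1 is known from lymphocytes and endothelium and Elf2 from many tissues. Elf1, at chr14:79718634-79819934 (plus strand), had normalized counts of 976, 957 and 1042, a mean of 992 ± 44.6 (SD, n = 3). Elf2, at chr3:51160141-51248084 (minus strand), had 1581, 1552 and 1581, a mean of 1571 ± 16.7 (SD, n = 3). Each value of Elf2 was above those of Elf1. Per kb the difference was smaller, with 288 ± 3.07 for Elf2 and 245 ± 11.01 for Elf1 (SD, n = 3). The log2 ratio of Elf1 to Elf2 per kb was -0.24 ± 0.05 (SD, n = 3) and negative in all 3 mice (exact sign-flip permutation test, two-sided p = 0.25, adjusted p = 0.3125).

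Etv6, also known as TEL, is a repressor that polymerizes through its pointed domain. It lies at chr6:134012663-134247121 (plus strand) and had normalized counts of 949, 1148 and 1170, a mean of 1089 ± 122 (SD, n = 3). Mouse 1 was below mice 2 and 3, which were close to each other. Per kb Etv6 had the lowest level of the 10 members with 175 ± 19.5 (SD, n = 3), and 186 without mouse 1. It was last in each mouse, but took place 7 of 10 when all exons were used as length. Its corepressors Ncor1 and Sin3a had 291 ± 23.97 and 122 ± 16.3 per kb (SD, n = 3).

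Gabpa is the DNA-binding subunit of GABP, also called nuclear respiratory factor 2, which binds promoters of mitochondrial and other housekeeping genes. It lies at chr16:84631813-84660667 (plus strand), with 85.9 kb between it and App, the gene of the amyloid precursor protein that the study is about. Gabpa had normalized counts of 1019, 997 and 1095, a mean of 1037 ± 51.4 (SD, n = 3), or 204 ± 10.1 per kb. Its partner subunit Gabpb1 had 867, 935 and 873 normalized counts, a mean of 892 ± 37.6 (SD, n = 3). Gabpb2, the other beta subunit, had 964, 916 and 1124. In counts the values of Gabpa exceeded those of Gabpb1 in each mouse, while per kb of canonical transcript the order was the opposite, with 541 ± 22.8 for Gabpb1 (SD, n = 3). The log2 ratio of Gabpa to Gabpb1 was -1.40 ± 0.12 per kb of canonical transcript (SD, n = 3; exact sign-flip permutation test, two-sided p = 0.25, adjusted p = 0.3125). It was -0.33 with the longest coding transcripts, 0.34 with all exons joined and 0.22 without division by length. The order of the subunits thus cannot be given from these counts.

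In the order of levels per kb, 7 of the 9 neighbouring pairs of members were further apart than either SD and held the same order in each mouse. The pairs that did not were Ets1 with Ets2, and Elf1 with Elk4, and both were in the opposite order in mouse 1. The widest step was between Fli1 and Elf2, with a log2 ratio of 0.60, and the whole order spanned a 3.45-fold range. Which genes formed the upper 5 was the same with all exons joined and with the longest coding transcripts, although places within the groups changed. Erg took the first place with all exons joined and Ets1 with the longest coding transcripts. Without division by length Elf2 passed Fli1. The number of neighbouring pairs that met both conditions was 5 with all exons joined, 7 with the longest coding transcripts and 6 without division by length.

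The coefficients of variation of the members over the 3 mice ranged from 1.07% in Elf2 to 11.2% in Etv6, with a median of 4.59%, against a median of 7.37% over the 9358 genes whose mean reached 200. Of the 10 members, 8 were below this median. None of the members had a coefficient over 20%, as compared with 8.00% of those 9358 genes, a share at which few of 10 genes would be counted. The members and these genes were not matched for level, and removal of duplicates can narrow differences between mice in densely covered transcripts such as those of the upper group. Counting of reads alone would give 2.52% for Elf2 and 2.47% for Erg, and the observed values of 1.07% and 2.05% were below that. The values expected from counting do not allow for the removal of duplicates, and a coefficient over 3 mice is imprecise. For Ets1 the observed value was 3.26% and counting would give 1.85%. For Etv6 counting would give 3.03%, and a coefficient of 10.8% remained once that variance was subtracted.

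**Figure D3:**
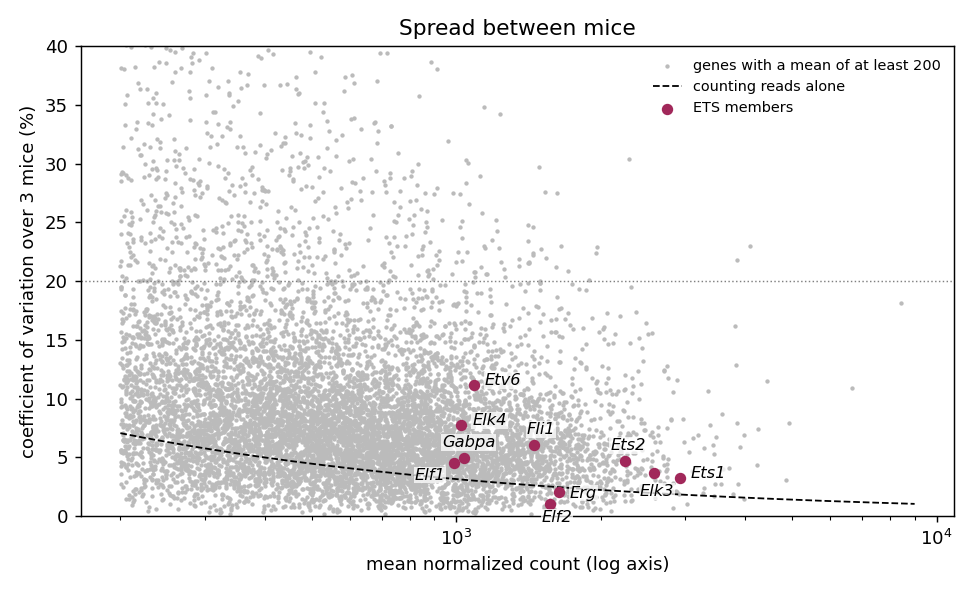
Coefficient of variation over 3 mice against mean normalized count (log axis) for genes whose mean reached 200 (grey) and the 10 ETS members (red), with the value expected from counting reads (dashed) and the limit of 20% (dotted). The members lie between 1.07% and 11.2%, and genes above 40% are outside the plot.

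The small departures that remained were not the same in all members. In 6 of 10 members mouse 1 had the highest value, as it had in 37.6% of the 9358 genes. These were Erg, Fli1, Ets1, Ets2, Elk3 and Elk4. Mouse 3 was the highest in Elf1, Gabpa and Etv6, 3 of 10 against 29.7% of genes, and mouse 2 in 0 of 10 against 31.9% of genes. In Elf2 mice 1 and 3 had the same value. With 10 members these counts differ by few genes from those shares. The departures were within 0.13 on the log2 scale in each case other than Etv6 in mouse 1, which was -0.20.

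**Figure D4:**
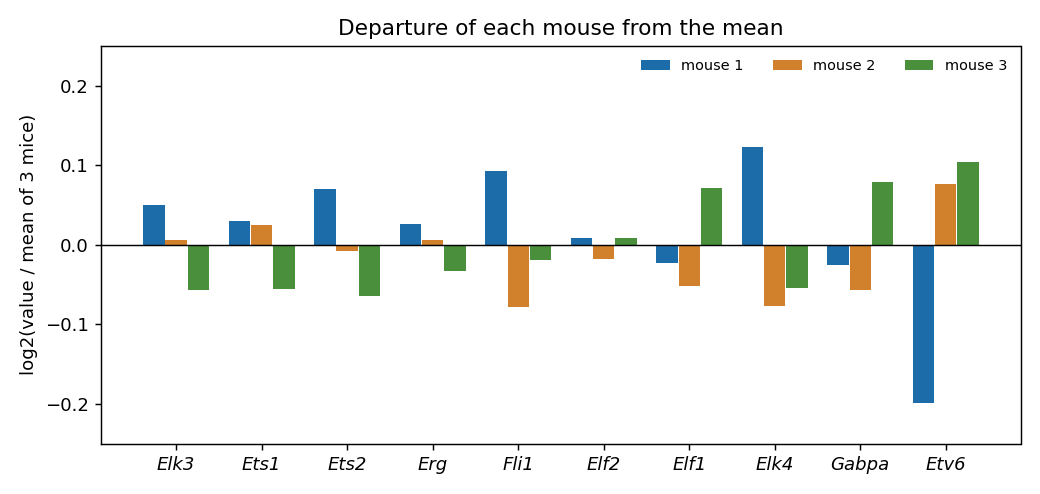
Log2 ratio of the value in each mouse to the mean of the 3 mice for the 10 members (bars starting at 0). Mouse 1 is above the mean in Elk3, Ets1, Ets2, Erg, Fli1, Elf2 and Elk4, and the longest bar is that of Etv6 in mouse 1 at -0.20.

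Most of the rest of the family was lower. Of 17 other ETS genes looked up, 10 were listed, 8 had a mean of at least 10 normalized counts and 5 a mean of at least 200. The 10 members held 79.8% ± 1.4 (SD, n = 3 mice) of the summed level per kb of the 20 ETS genes listed. They were chosen with earlier results of these data known, so this share partly reflects the choice. Erf, a repressor, was the only one of the others whose mean per kb exceeded that of any member, while in mouse 1 alone Etv3 was above Etv6. It had normalized counts of 1335, 1465 and 1325, and its level of 392 ± 22.3 per kb (SD, n = 3) placed it between Fli1 and Elf2. The related repressor Etv3 had 163 ± 12.3 and the Elf subgroup gene Elf4 148 ± 17.3 per kb (SD, n = 3).

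Among the Pea3 subgroup, which acts downstream of fibroblast growth factor signals, Etv5 had 297, 308 and 345 normalized counts and Etv1 had 65, 77 and 79. Etv4 had 72, 251 and 219. Its value in mouse 1 was far below the others, with a ratio of the highest to the lowest of 3.49, the largest departure among ETS genes with a mean of at least 10. Of the 10 other ETS genes listed, 6 were lowest in mouse 1, as were 33.1% of all genes listed. In the same library the lymphatic markers Prox1, Lyve1 and Pdpn summed to 1187 normalized counts, against 1624 and 1837 in mice 2 and 3, and the leukocyte markers to 240 against 414 and 396. The mural markers (955 against 1292 and 1181), the mesothelial markers (896 against 1088 and 992), the fibroblast markers (1403 against 1453 and 1711) and the cardiomyocyte markers (16442 against 17491 and 20653) also had their lowest sums in mouse 1. The endothelial markers did not, with 14205 against 13788 and 13903. Single markers did not all follow these sums. Actc1 was highest in mouse 1 (1046, 998 and 927), Dcn was lowest in mouse 2 (813, 579 and 1007) and Rgs5 in mouse 3 (542, 615 and 505). The median per kb of the cardiomyocyte markers was highest in mouse 1, with 287, 274 and 266. The mesothelial sum was mostly Wt1 (871, 1055 and 939), while Upk3b had 10, 10 and 33 and Msln 15, 23 and 20. The part of other cells, and of the difference in Xist and Ddx3y, in the low values of Etv4 and Etv6 was not tested.

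Factors that define other lineages were near the floor of the table, which lists no gene with all values below 4. Spi1 (PU.1), the factor of myeloid cells, had 17, 25 and 25 normalized counts, and Spib of the B lineage had 3, 7 and 1. Fev, known from serotonergic neurons, had 4, 12 and 8. Etv2, which drives the formation of embryonic endothelium, was not listed, nor were Etv3l, Spic and the epithelial factors Elf3, Elf5, Ehf and Spdef. Since Fli1, Ets1 and Elf1 are also made by leukocytes, their levels stand beside leukocyte marker sums of 240 to 414 and Spi1 values of 25 at most. The cardiomyocyte markers had far higher sums of 16442 to 20653. The part of such other cells in the level of any member was not tested.

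**Figure D5:**
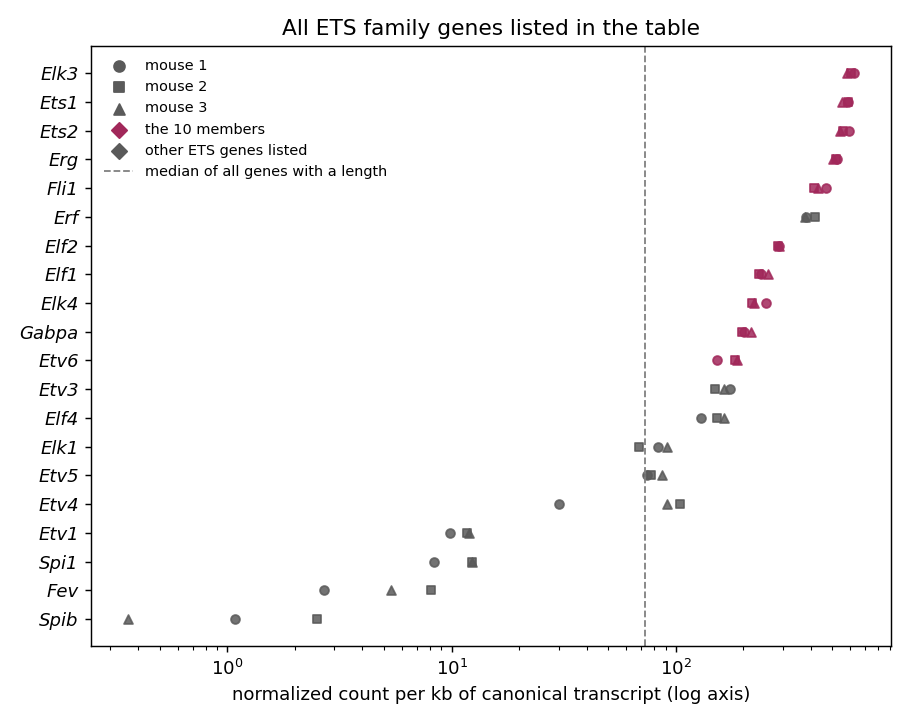
Normalized count per kb of canonical transcript (log axis) of the 20 listed ETS genes in each of 3 mice, with the 10 members in red and the 10 other ETS genes in grey. Erf is the only other gene above any member's mean, and Etv4 has a single low point in mouse 1.

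Regulators that act with ETS factors were present at a wide range of levels. The kinase Mapk3, which phosphorylates Ets1, Ets2 and the Elk factors, had 1335, 1329 and 1225 normalized counts, or 720 ± 34.4 per kb (SD, n = 3). The coactivators Crebbp and Ep300 had 89.9 ± 8.15 and 95.6 ± 21.5 per kb (SD, n = 3). Foxo1, which binds beside ETS factors in endothelial enhancers, had 168 ± 7.40 per kb (SD, n = 3). Runx1, a partner in blood cells, was low with 21, 37 and 36 normalized counts. Of the 11 partners, only Ep300 passed both the mean of 200 and the 20% limit of variation, with 945, 821 and 1261 normalized counts.

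Genes known to carry functional ETS sites were looked at beside the factors. All 16 endothelial genes of this list had a mean of at least 200, as compared with 53.2% of all genes listed. Their median level was 463 ± 24.7 per kb (SD, n = 3 mice), close to that of Fli1. Cdh5 (VE-cadherin) had normalized counts of 2808, 2860 and 2930, and Cldn5 (claudin-5) had 998, 1074 and 940. Vwf was the only one of the 16 with a coefficient of variation over 20%, with 1898, 1886 and 3098 normalized counts, against 8.00% of all genes with that mean, and it was high in mouse 3. Without mouse 3 none of the 16 exceeded 20%. The list was drawn up from known endothelial genes, so its level is a description and not evidence of ETS activity.

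The 5 genes with GABP sites had mean normalized counts below those of every member, but this order did not hold per kb of canonical transcript. Per kb the mean of Cox4i1 was 738 ± 24.4 (SD, n = 3), above every member. Cox5b had 299 ± 20.4 per kb (SD, n = 3), above the means of the lower group. Tfam, Tfb1m and Tfb2m were below every member per kb as well. Cox4i1, a subunit of cytochrome c oxidase, had 575, 598 and 560 normalized counts, and Tfam, the mitochondrial transcription factor, had 577, 595 and 519. None of the 3 with a mean of at least 200 had a coefficient over 20%. Tfb2m, which was below that mean, had 122, 87 and 120 and a coefficient of 17.9%. Of the 5 genes with sites for Srf and Elk factors, Fos and Egr1 exceeded 20%, against 8.00% of all genes with a mean of 200 or more. This count was 1 without mouse 2 and 0 without mouse 3. Egr1 had 1254, 996 and 1525 normalized counts and was, like Fos, highest in mouse 3. Mcl1 from the same list had 2100, 2093 and 1895 and was lowest there.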

How the data were processed

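Ribosome-associated RNA of 3 EC-RiboTag mice was read single-end with 72 bases. According to the methods and the submitters' processing notes, reads were trimmed (Trimmomatic 0.39), aligned to mm39 (STAR 2.7.11a), freed of duplicates (Picard 3.1.1) and of multi-mapping, ribosomal and mitochondrial reads, counted per gene on the correct strand (featureCounts 2.0.4) and normalized (DESeq2 1.36.0). The deposited values are a score, namely counts that the authors divided by a size factor and rounded to whole numbers, so no count model was applied. Duplicate removal compresses abundant short transcripts. Samples were taken as separate mice because the labels call them biological replicates.

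Lengths came from the GENCODE annotation of GRCm39, which holds 99.4% of the gene identifiers and is newer than that of the authors. The worth of 1 read in each library (0.961 to 1.06 normalized counts) was estimated from the whole numbers left empty or doubled by rounding. On simulated data its error was at most 0.0002, and 100.0% of 200 genes changed 2-fold in 1 of 3 mice exceeded a coefficient of variation of 20%. The simulation held no removal of duplicates, and a 2-fold change lies far above that limit, so it checks the calculation only. Intervals of counting cover counting error only. Ratios were taken within mice and tested by exact sign flips, with Benjamini-Hochberg adjustment over 5 pairs. Copies were searched with BLAST 2.17.0, and computations used Python 3.11.15, numpy 2.4.6, pandas 2.3.3 and matplotlib 3.10.9. Alternatives were other lengths, scaling by trimmed means or totals, pseudocounts of 1 and 5, other filters and leaving out each mouse.

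Members and lists were chosen with earlier results of these data known. The genes named are the 10 members, the lists of other ETS genes, partners, targets and markers, and Xist, Ddx3y, App and Fos as features of the libraries or the study. The value of 1 partner is not reported here. No gene was sought for a similar pattern over samples, because 3 replicates of a single condition give none.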

Additional observations from a re-analysis of the deposited data

How the results depend on the processing

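Scaling of libraries cancels in ratios taken within a mouse and so is no check of them. Pseudocounts of 1 and 5 changed the direction of none of the 5 ratios. The log2 ratio of Ets1 to Ets2 reversed to -0.067 with all exons joined, and that of Gabpa to Gabpb1 reversed to 0.34 with all exons joined and to 0.22 without division by length, as follows from the lengths themselves. With a mean of at least 200 in place of 10, 5 of the other ETS genes were counted. When 1 mouse was left out, the median coefficient of variation of the members lay between 1.85%, without mouse 3, and 5.15%, without mouse 2. The number of variable genes lay between 0 and 1 for the endothelial targets and between 0 and 2 for the targets of Srf and Elk factors, with 0 in both without mouse 3. Over the 169 other recomputed values 138 stayed within their limits, 28 moved and 3 reversed. A ratio counted as within its limits if it kept its sign, whatever its size. A level did so if it moved by less than its SD, and leaving out 1 of 3 mice cannot move a mean that far. Places had to be unchanged, and counts, shares and medians had to stay within a fixed factor. These totals are thus no measure of how stable the results are. Counting error was 1.85% (Ets1) to 3.17% (Elf1) among the members. No paired analysis was possible because all samples belong to a single group and no conditions can be paired. The ratios of genes were already taken within each mouse.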
